A study of Mus musculus with 9 samples.

Results

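Immediate early transcription factors are the subject here: 10 genes, Fos, Fosb, Jun, Junb, Egr1, Egr2, Nr4a1, Atf3, Ier2 and Maff, chosen by name. All 10 had a probe set annotated to them alone, 12 probe sets in all, and each gene was represented by its brightest one. They were followed among 7796 genes tested on 9 oligonucleotide arrays, each of cells sorted from mouse back skin. Donors were virgin CD1 females of genotype Lef1RFP/K14H2BGFP, in which a red reporter is named for Lef1 and a green histone H2B fusion for keratin 14, and every group carried both reporters. Bulge cells (RFP(-) GFP(+) CD34(+) Pcad low) and hair germ cells (RFP(-) GFP(+) CD34(-) Pcad Hi) were sorted from a trypsin suspension. Dermal papilla cells (RFP+, GFP-, and depleted of CD45, CD117, CD34 and integrin alpha 7) came from the collagenase suspension made before it. Each population was taken at postnatal days 43, 56 and 69, labelled early, middle and late telogen, the resting phase of the hair cycle, with 1 array per population and day. The labels do not say how many mice were pooled or whether the populations of a day share mice, so p-values measure only the spread between these arrays.

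Immediate early genes are transcribed within minutes of a stimulus from transcription factors already present in the cell, without new protein synthesis. Growth factors, stretch, wounding and the enzymatic dissociation of a tissue are all known to induce them, largely through MAP kinases, serum response factor with its ternary complex partners, and CREB. FOS and JUN family proteins pair through leucine zippers to form AP-1, EGR proteins are zinc finger factors, NR4A1 is an orphan nuclear receptor, ATF3 is a stress-induced bZIP factor, IER2 is a small nuclear regulator and MAFF is a small MAF protein without a transactivation domain.

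Levels are given as log2(signal + 16) of the deposited array signal. Cd34 and the genes that name the reporters, Lef1 and Krt14, went with the gates. Lef1 averaged 7.26 in the RFP+ dermal papilla, against 4.99 for hair germ and 4.23 for bulge. Krt14 averaged 13.02 in hair germ and 10.91 in bulge, both GFP(+), against 5.06 in dermal papilla. The surface antigen gene Cd34 averaged 11.69 (log2) in bulge against 4.70 and 5.36 in hair germ and dermal papilla, and the dermal papilla marker Crabp1 averaged 13.04 in dermal papilla against 4.74 and 5.2. P-cadherin (Cdh3), which defines the hair germ gate, lay above the array median on 0 of 9 arrays and checked nothing. Lef1, also listed as a hair germ marker, was not highest there. The marker Tnfrsf19 was, at a mean of 9.37 in hair germ, against 7.93 for dermal papilla and 5.05 for bulge. The GAPDH 3'/5' signal ratio, a measure of how far labelled RNA is shortened toward its 3' end, was 3.96 to 5.09 in bulge. For dermal papilla it was 6.62, 4.13 and 3.77 over days 43, 56 and 69, and for hair germ it was 8.34, 2.97 and 7.9. Of 6 leukocyte markers 3 lay above the median on at least 3 arrays, with summed signals of 85.4 to 590 in dermal papilla, 247 to 471 in hair germ and 444 to 669 in bulge. The 5 melanocyte markers summed to 382 to 701, 2130 to 4970 and 2250 to 2970 in the same order, and the bulge sum was carried by Mitf, at a mean of 11.27 in bulge and 9.10 in hair germ. All 4 endothelial markers and 3 of 4 smooth muscle markers were above the median on 0 arrays. The part of RNA quality and of these other cells in the results below was not tested.

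Promoter sequence was looked up for the members because several of them changed together between populations. The RefSeq promoter table (GRCm38.p6) held windows, each 250 bases before to 50 after a transcription start, for 8 of the 10 genes, all but Egr1 and Ier2. Both strands were searched for the CArG box bound by serum response factor, the full cAMP response element TGACGTCA and its short form TGACG (which the full element contains on each strand), the AP-1 sites TGAGTCA and TGACTCA, the EGR sites GCGGGGGCG and GCGTGGGCG, the NR4A site AAAGGTCA and TATAAA. The sequences below run 5' to 3', with every match in capitals. Those of Fos, Atf3 and Junb are the last 140 bases before the start, and the others are 30-base stretches around a match.
Fos, chr12:85473750-85473889, plus strand: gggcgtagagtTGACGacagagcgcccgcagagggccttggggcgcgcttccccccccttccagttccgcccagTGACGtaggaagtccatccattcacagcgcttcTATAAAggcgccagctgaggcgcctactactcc
Atf3, chr1:191183334-191183473, minus strand: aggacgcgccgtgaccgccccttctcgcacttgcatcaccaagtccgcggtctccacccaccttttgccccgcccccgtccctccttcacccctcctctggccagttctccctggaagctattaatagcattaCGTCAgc
Junb, chr8:84978749-84978888, minus strand: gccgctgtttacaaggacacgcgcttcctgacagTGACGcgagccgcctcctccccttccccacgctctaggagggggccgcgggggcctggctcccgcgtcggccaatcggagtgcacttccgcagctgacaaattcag
Egr2, chr10:67537793-67537822, plus strand: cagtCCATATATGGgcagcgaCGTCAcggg
Nr4a1, chr15:101266775-101266804, plus strand: tgCGTCAgtggCGCCCCCGCccctctccat
Fosb, chr7:19310077-19310106, minus strand: gTGACGcaagcGCGGGGGCGggtcccggag
Maff, chr15:79347480-79347509, plus strand: ggctggggcggTGACGTCActgcatgactg

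The short form TGACG occurred in a window of 7 of the 8 genes, against 23% of all 27025 genes in the table. It stood 66 to 62 bases before the start of Fos and 7 to 3 bases before that of Atf3, there on the opposite strand. The full element occurred in 1 of 8, Maff, against 2.03% of genes. A CArG box occurred in 1 of 8, Egr2, against 1.81%. The EGR site occurred in 3 of 8, Fosb, Nr4a1 and Maff, against 3.93%, and both the AP-1 and NR4A sites in 0 of 8, against 5.95% and 1.7%. TATAAA occurred in 2 of 8, Fos and Junb, against 15.7%, in Junb reaching past the start. Jun had no exact match to any of these motifs in its window, and near matches were not searched. The well-known serum response element of Fos lies farther upstream than the window reaches. Egr2 had 5 windows and Maff 3, so these genes had more bases searched. A match describes the letters and does not show that a factor binds.

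**Figure D1:**
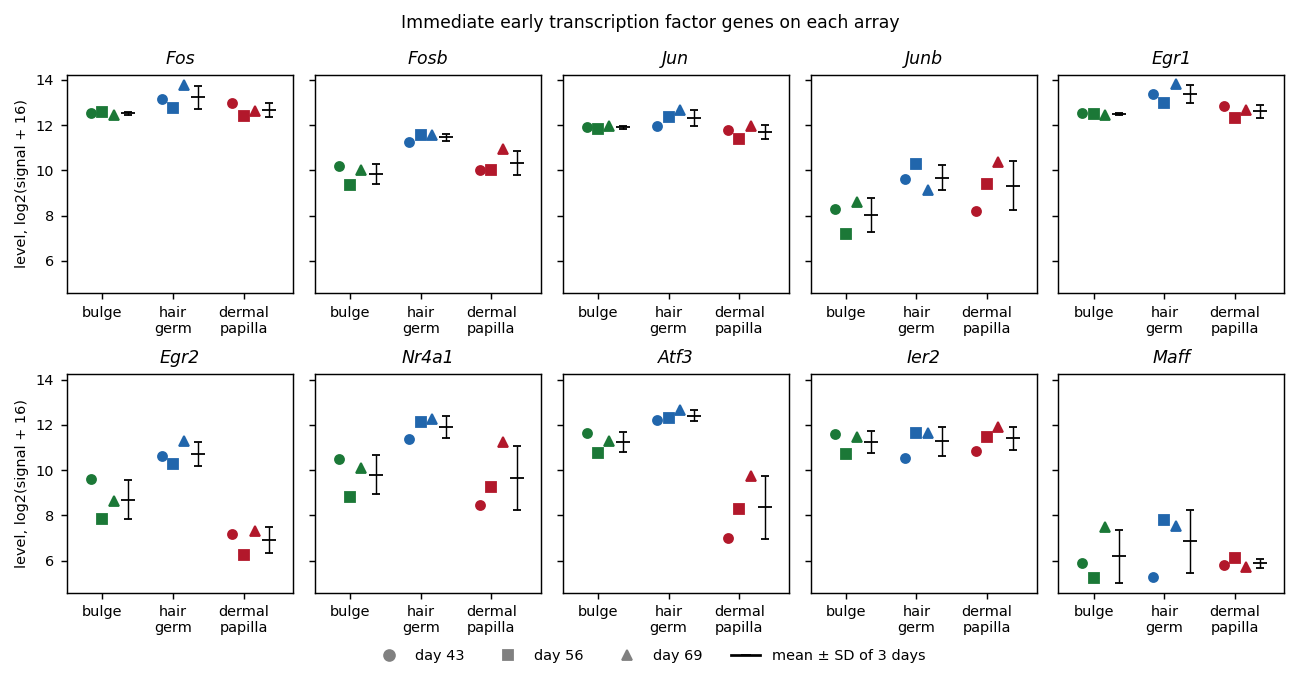
Level of each gene on each of the 9 arrays, as log2(signal + 16), by population on the x axis, with a symbol per day and the mean ± SD of the 3 days beside them. Hair germ holds the 3 highest arrays for Fosb, Egr1, Egr2, Nr4a1 and Atf3, while Ier2 overlaps in all populations. Heights compare arrays within a gene and not genes with each other, since probe sets differ.

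The first comparison asked how the hair germ, the epithelial cluster next to the dermal papilla, differs from the bulge, the stem cell niche above it. Fosb, Junb, Egr1, Egr2 and Nr4a1 were higher in hair germ, by 1.84-fold to 4.29-fold, and 0 of 10 members were called lower, against 7.56% of all genes tested. The higher ones were 5 of 10 members called by limma at an adjusted p below 0.05, where 12.2% of those genes were called higher and 19.8% in either direction. The members' median difference was 1.02 log2 units, against 0.10 for all genes. All 3 hair germ arrays lay above all 3 bulge arrays for 7 of 10 members, against 23.9% of all genes. Median array signals over days 43, 56 and 69 were 43.5, 53.8 and 56.3 in hair germ. In bulge they were 42.4, 39.9 and 43.4. Values were not rescaled, and the overlap was not recounted after rescaling. Array signals are averages over a sorted population, so a larger share of expressing cells and more RNA per cell cannot be told apart. Melanocyte genes other than Mitf were also higher in hair germ, where Dct averaged 10.60 against 6.26 in bulge, Tyrp1 8.78 against 5.05, Pmel 8.89 against 5.73 and Kit 6.03 against 4.56. Their part in the members' differences was not tested.

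Nr4a1, the orphan nuclear receptor gene, was at 10.49, 8.83 and 10.11 log2 units in bulge on days 43, 56 and 69, and at 11.37, 12.12 and 12.25 in hair germ. Every hair germ array was above every bulge array, and the lowest bulge value was that of day 56. The difference was 2.10 ± 0.50 (SE) log2 units, 4.29-fold (limma, adjusted p = 0.0147). By day it was 0.88, 3.28 and 2.14. The call ended without the bulge array of day 56 (difference 1.66, adjusted p = 0.0853), that of day 69 (1.77, adjusted p = 0.0817) or the hair germ array of day 56 (1.66, adjusted p = 0.0734).

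Egr2, a zinc finger factor gene known from hindbrain, Schwann cell and hair follicle development, was at 9.61, 7.86 and 8.64 in bulge and at 10.64, 10.26 and 11.31 in hair germ. The groups did not overlap, and the bulge array of day 56 was again the lowest. The difference was 2.03 ± 0.29 (SE), 4.08-fold (limma, adjusted p = 0.000779). A separate Egr2 probe set averaged 8.18 ± 0.17 (SD, n = 3) in bulge and 9.93 ± 0.25 in hair germ. Egr1, its close relative, was at 12.56, 12.50 and 12.46 in bulge and at 13.37, 12.99 and 13.80 in hair germ. All hair germ values were above the narrow bulge range, and the difference was 0.88 ± 0.24 (SE), 1.84-fold (limma, adjusted p = 0.0252). That call did not hold under every scaling: the difference was 0.23 under quantile normalization (adjusted p = 0.243) and 0.67 with median centring (adjusted p = 0.0834). With no filter on dim probe sets the adjusted p was 0.0713 (limma), and the call held under 6 of the 10 other settings. These 10 include another probe set, and Egr1 has only 1. The Egr1 call also ended without the bulge array of day 43 (adjusted p = 0.13) or 69 (0.129), the dermal papilla array of day 56 (0.0657) or the hair germ array of day 43 (0.0553).

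Of the AP-1 genes, Fosb was at 10.20, 9.34 and 10.02 in bulge and at 11.26, 11.55 and 11.56 in hair germ. The hair germ arrays lay close together and above all bulge arrays. The difference was 1.61 ± 0.27 (SE), 3.04-fold (limma, adjusted p = 0.00195). Junb, whose protein is the JUN partner that can restrain JUN activity, was at 8.28, 7.17 and 8.62 in bulge and at 9.63, 10.28 and 9.15 in hair germ. The difference was 1.66 ± 0.50 (SE), 3.17-fold (limma, adjusted p = 0.0391), and by day it was 1.36, 3.11 and 0.53, so it was narrowest on day 69. The Junb call ended under quantile normalization (1.56, adjusted p = 0.0573) and median centring (1.45, adjusted p = 0.0517). It also ended with a pseudocount of 1 (limma, adjusted p = 0.0519) and with no filter on dim probe sets (0.0609), and held under 5 of the 10 other settings. Junb, too, has only 1 probe set. Without the bulge array of day 56 the Junb difference was 1.07 (adjusted p = 0.196). Leaving out the bulge array of day 69 (adjusted p = 0.0813), the dermal papilla array of day 56 (0.0609) or the hair germ array of day 43 (0.127) or 56 (0.171) ended the call too.

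The most studied pair of AP-1 genes did not pass. Fos was at 12.52, 12.60 and 12.43 in bulge and at 13.15, 12.78 and 13.78 in hair germ, a difference of 0.72 ± 0.27 (SE; limma, adjusted p = 0.086). The hair germ arrays were higher without overlap, but spread over 0.51 (SD, n = 3) against 0.09 in bulge. Under quantile normalization the Fos difference was 0.087. Jun was at 11.93, 11.82 and 11.96 in bulge and at 11.95, 12.34 and 12.65 in hair germ, with overlap on day 43 and a difference of 0.41 ± 0.23 (SE; limma, adjusted p = 0.233).

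Atf3, induced by many stresses, was at 11.66, 10.78 and 11.31 in bulge and at 12.24, 12.33 and 12.67 in hair germ. The arrays did not overlap, and the difference of 1.16 ± 0.45 (SE) missed the threshold (limma, adjusted p = 0.0982). It was 1.78 without the 3 arrays whose GAPDH ratio was above 6. In that fit hair germ is the day 56 array alone and is assumed to vary like the other groups. Leaving out 1 array moved the difference from 0.78 to 1.75, and it passed without the bulge array of day 43 (1.75; limma, adjusted p = 0.032). Without the dermal papilla array of day 43 or 69 it stayed at 1.16, but its SE fell to 0.28 or 0.34. It then passed (limma, adjusted p = 0.0146 and 0.0374). The SE is shared by the 3 populations, and Atf3 spread most in dermal papilla (SD 1.38, against 0.44 in bulge and 0.23 in hair germ). Ier2 was at 11.60, 10.70 and 11.45 in bulge and at 10.55, 11.63 and 11.65 in hair germ, a difference of 0.03 ± 0.33 (SE; limma, adjusted p = 0.969). The highest and lowest of these 6 arrays were both hair germ arrays, and the bulge range lay inside. Maff lay above the array median on 5 of 9 arrays, and was at 5.88, 5.22 and 7.49 in bulge and 5.26, 7.78 and 7.55 in hair germ. Each population had low and high arrays, so the ranges overlapped, and the difference was 0.66 ± 0.56 (SE; limma, adjusted p = 0.449).

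**Figure D2:**
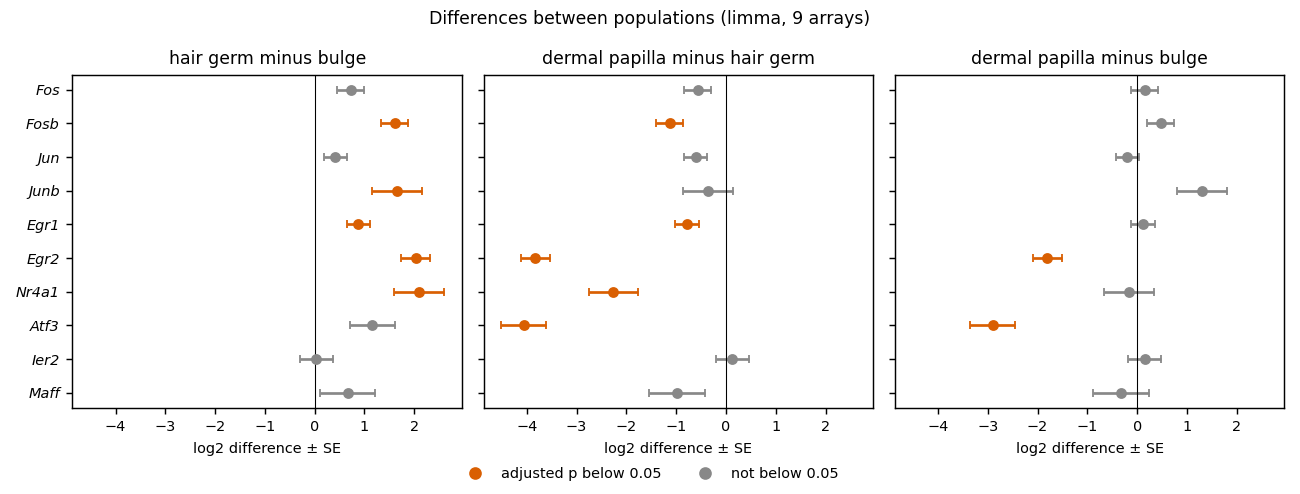
Log2 difference between populations for each of the 10 genes, with the SE of the limma fit on 9 arrays as bars and genes with an adjusted p below 0.05 in orange. Egr2 and Atf3 lie furthest from 0 where dermal papilla is compared, at -3.83 and -4.06 against hair germ, while Ier2 lies within 0.15 of 0 in all 3 panels.

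The second comparison set the dermal papilla, the mesenchymal signalling centre at the follicle base, against the hair germ. Fosb, Egr1, Egr2, Nr4a1 and Atf3 were lower in dermal papilla, Atf3 by 16.7-fold and Egr2 by 14.3-fold, and no member was called higher. These 5 of 10 called lower (limma) stand against 23.8% of all genes tested, and the 0 called higher against 15.5%, with 39.3% in either direction. The members' median difference was -0.88 log2 units, against -0.15 for all genes, and all hair germ arrays lay above all dermal papilla arrays for 5 of 10 members, against 28.1% of all genes. The dermal papilla cells also came from a different enzyme suspension than the epithelial cells, so population and digestion cannot be told apart in this comparison or the next.

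Atf3 was at 7.01, 8.29 and 9.76 in dermal papilla on days 43, 56 and 69, against a lowest hair germ value of 12.24. The dermal papilla arrays spanned 2.75 log2 units and still lay below every epithelial array. The difference from hair germ was -4.06 ± 0.45 (SE; limma, adjusted p = 3.53e-05), and by day it was -5.24, -4.03 and -2.92. Egr2 was at 7.17, 6.24 and 7.30 in dermal papilla, also below every epithelial array, and differed from hair germ by -3.83 ± 0.29 (SE; limma, adjusted p = 1.94e-06). Its other probe set averaged 6.80 ± 0.35 (SD, n = 3) there.

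Nr4a1 was at 8.47, 9.26 and 11.23 in dermal papilla. The day 69 array came within 1.02 log2 units of hair germ on the same day, while those of days 43 and 56 differed from it by -2.89 and -2.85. The fitted difference was -2.26 ± 0.50 (SE; limma, adjusted p = 0.00443). Fosb was at 10, 10.03 and 10.94 in dermal papilla, below all hair germ arrays, with a difference of -1.13 ± 0.27 (SE; limma, adjusted p = 0.00584). Egr1 was at 12.86, 12.31 and 12.67, a difference of -0.78 ± 0.24 (SE; limma, adjusted p = 0.024) that was -0.12 under quantile normalization (adjusted p = 0.502). It was -0.63 with median centring (limma, adjusted p = 0.0708). With no filter on dim probe sets the adjusted p was 0.0676 (limma), and the call held under 6 of the 10 other settings. The Egr1 call also ended without the dermal papilla array of day 56 (adjusted p = 0.138) or of day 69 (adjusted p = 0.114).

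The other 5 members were not called against hair germ. Fos was at 12.99, 12.39 and 12.64 in dermal papilla and differed by -0.57 ± 0.27 (SE; limma, adjusted p = 0.119), a value that was 0.10 under quantile normalization. Jun was at 11.79, 11.37 and 11.96 and differed by -0.61 ± 0.23 (SE; limma, adjusted p = 0.0548). Without the hair germ array of day 43 the Jun difference was -0.82 (adjusted p = 0.0297) and that of Maff -1.68 (adjusted p = 0.0338). On the second Jun probe set, at 10.93 ± 0.28 (SD, n = 3) in dermal papilla and 11.76 ± 0.36 in hair germ, the difference was -0.83 and passed (limma, adjusted p = 0.0104). Junb was at 8.21, 9.38 and 10.38, overlapping hair germ, and differed from it by -1.43, -0.90 and 1.23 on the 3 days. Ier2 was at 10.86, 11.45 and 11.90 and Maff at 5.79, 6.11 and 5.74, with differences of 0.13 ± 0.33 and -0.98 ± 0.56 (SE). Maff stayed below the levels seen on the late bulge array and the later hair germ arrays.

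Against the bulge, 2 of 10 members were called, Egr2 and Atf3, both lower in dermal papilla, where 19% of all genes tested were called lower and 35.1% in either direction (limma). None was called higher, against 16.1%, and for 0 of 10 did all dermal papilla arrays lie above all bulge arrays, against 24.3%. Atf3 differed by -2.90 ± 0.45 (SE), 7.47-fold (limma, adjusted p = 0.000442), and Egr2 by -1.81 ± 0.29 (SE), 3.50-fold (limma, adjusted p = 0.000506). For both, all dermal papilla arrays lay below all bulge arrays, as for 28.3% of all genes. The members' median difference was -0.02, against -0.05 for all genes. Fos (0.15 ± 0.27, SE), Egr1 (0.11 ± 0.24) and Ier2 (0.15 ± 0.33) stood within 1 SE of 0. Junb was 1.30 ± 0.50 above bulge (SE; limma, adjusted p = 0.0658). Without the dermal papilla array of day 43 the Junb difference was 1.91 (adjusted p = 0.00989). It also passed without the bulge array of day 43 (adjusted p = 0.0467) or the hair germ array of day 56 (0.0498) or 69 (0.018), and ranged from 0.71 to 1.91 over the 9 arrays left out in turn.

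Nr4a1 differed in direction between the days. Dermal papilla minus bulge was -2.02 on day 43, then 0.43 and 1.12 on days 56 and 69, and the fitted difference was -0.16 ± 0.50 (SE; limma, adjusted p = 0.848). Without the 3 arrays with a GAPDH ratio above 6, which include dermal papilla of day 43, it was 0.78. Fosb and Junb were at 0.81 and 1.99 in that fit. It leaves hair germ 1 array and day 43 bulge alone, so few arrays remain to estimate the spread.

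Calls for Fosb and Egr2 between hair germ and bulge, for Fosb, Egr2, Nr4a1 and Atf3 between dermal papilla and hair germ, and for Egr2 and Atf3 between dermal papilla and bulge held under all 10 other settings tried and with each of the 9 arrays left out. The setting with another probe set is a separate check for Egr2 alone here, since Fosb, Nr4a1 and Atf3 have only 1. In the order of the population means, hair germ was first for 9 of the 10 genes, all but Ier2. The share of all genes with hair germ first was not counted. For Fos, Jun, Ier2 and Maff no pair of populations was called. For Junb, hair germ and dermal papilla were not called apart, and neither were dermal papilla and bulge. For Fosb, Egr1 and Nr4a1 it was bulge and dermal papilla, and for Atf3 hair germ and bulge, that were not called apart, while Egr2 differed in all 3 pairs.

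The third comparison followed age. Over the 3 populations together 0 of 7796 genes passed for day 69 against day 43 (limma), with 7.25% at an unadjusted p below 0.05, and 0 for day 56 against day 43, with 5.11%. Among the members 1 of 10 had an unadjusted p below 0.05 in each. Maff was 1.29 ± 0.56 (SE) higher on day 69 (limma, adjusted p = 0.682) and Egr2 differed by -1.02 ± 0.29 on day 56 (adjusted p = 0.845). The members' median was 0.51 for day 69, with 9 of 10 above 0, and -0.05 for day 56, against 0.07 and 0.05 for all genes.

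Within a population each day is 1 array, so these differences carry no test. In dermal papilla, Junb, Nr4a1, Atf3 and Ier2 were at least 2-fold higher on day 69 than on day 43, 4 of 10 members against 5.82% of all genes, at 2.17, 2.75, 2.75 and 1.04 log2 units. Each of these 4 genes was also higher on day 69 than on day 56. On day 56 Junb and Atf3 were at least 2-fold above day 43, 2 of 10 against 4.59% of all genes, and from day 56 to day 69 Egr2, Nr4a1 and Atf3 were, 3 of 10 against 2.59%. Fos and Egr1 differed by -0.35 and -0.19 on day 69 from day 43, and Egr2 and Maff were within 0.13 of day 43. The GAPDH ratio moved over the same arrays, 6.62, 4.13 and 3.77. So did markers of other cell types: the leukocyte gene Laptm5 was at 5.14, 7.99 and 9.07. The keratinocyte genes Krt15 (8.13, 4.29 and 4.06) and Krt5 (7.46, 5.87 and 5.86) were highest on day 43, as were Cdh1, Col17a1 and Itga6. Krt14 (4.41, 5.0 and 5.78) and Lgr5 (4.47, 5.26 and 5.24) were lowest then. The fibroblast genes Dcn (6.70, 9.04 and 9.16) and Lum (4.72, 6.06 and 6.30) were also lowest on day 43. Col3a1 (13.11, 12.47 and 12.47), Col1a1 and Pdgfra were highest on that day. The leukocyte genes Ptprc (4.52, 4.04 and 4.49) and Cd3e (4.10, 4.28 and 4.19) stayed low on all 3. Markers of the dermal papilla itself moved too. Corin (8.53, 8.63 and 10.20), Fgf7 (7.97, 9.23 and 9.89) and Alpl (6.16, 6.12 and 7.68) were highest on day 69. So were Vcan, Wif1 and Hhip, while Crabp1 (13.25, 12.98 and 12.91) was highest on day 43. Lef1, the gene that names the red reporter, was at 6.09, 6.81 and 8.86. The part of the ratio and of all these markers in the differences was not tested.

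In bulge the day 56 array was the lowest of the 3 for 8 of the 10 genes, all but Fos and Egr1. The share of all genes lowest on that array was not counted. Egr2, Nr4a1 and Junb were at least 2-fold lower on day 56 than on day 43, 3 of 10 members against 0.359% of all genes, and Fosb, Atf3 and Ier2 differed by -0.86, -0.88 and -0.90. Fos, Jun and Egr1 differed from day 43 by 0.11 or less there. On day 69 Junb and Nr4a1 were at least 2-fold above day 56 again, and so was Maff, 3 of 10 against 2% of all genes. Against day 43 the day 69 array was at least 2-fold higher for Maff alone, 1 of 10 against 1.48%. The bulge GAPDH ratio was 5.09 on day 56, the highest of its 3 arrays, whose ratios spanned 3.96 to 5.09. Fibroblast genes moved over these arrays too. Col3a1 (7.63, 5.15 and 8.20), Dcn (7.26, 5.86 and 9.10), Lum (5.22, 4.69 and 5.94) and Col1a1 (5.78, 4.94 and 5.28) were lowest on day 56. Pdgfra (4.83, 5.14 and 5.41) was not. The part of the ratio and of these genes in the members' differences was not tested.

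In hair germ the day 43 array was the lowest of the 3 for Fosb, Jun, Nr4a1, Atf3, Ier2 and Maff, most widely for Ier2 and Maff. How many of all genes were lowest on it was not counted. Ier2 and Maff were at least 2-fold higher on day 69 than on day 43, by 1.10 and 2.29, and on day 56, by 1.09 and 2.52, 2 of 10 members each time against 7.67% and 5.39% of all genes. From day 56 to day 69 Fos and Egr2 were at least 2-fold higher, 2 of 10 against 5.82% of all genes, and Junb at least 2-fold lower, 1 of 10 against 6.18%. Junb on day 69 differed by -0.49 from day 43 and by -1.13 from day 56. The GAPDH ratio was 2.97 on day 56 and 8.34 and 7.9 on the other days, and Fos, Egr1 and Egr2 were lowest on day 56 while Junb and Maff were highest then.

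**Figure D3:**
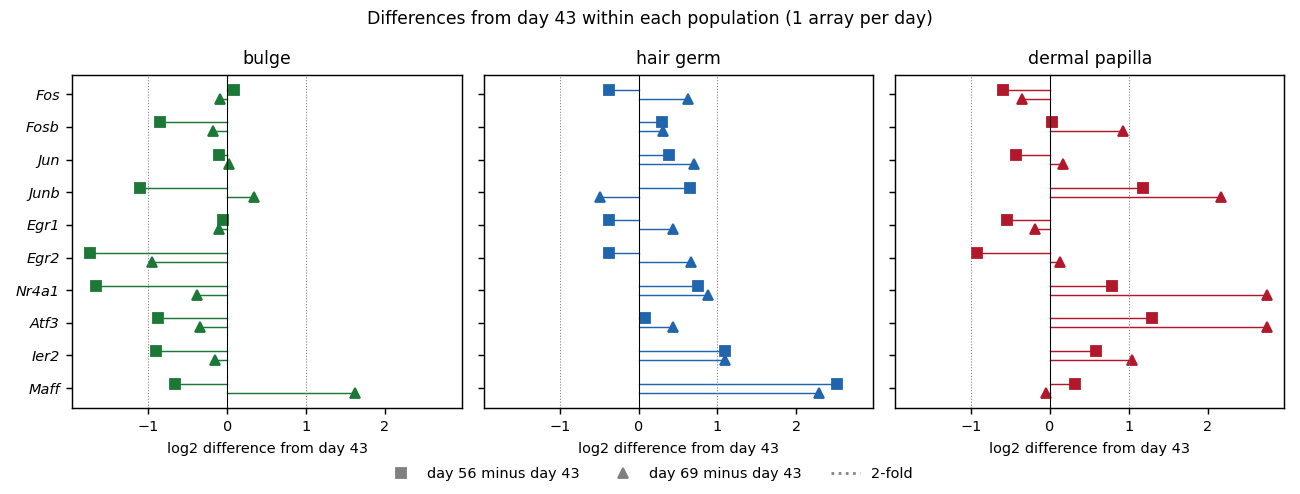
Log2 difference of days 56 (squares) and 69 (triangles) from day 43 within each population, 1 array per day, with dotted lines at 2-fold. Nr4a1 and Atf3 reach 2.75 in dermal papilla on day 69, Egr2 and Nr4a1 reach -1.74 and -1.66 in bulge on day 56, and Maff reaches 2.52 in hair germ on day 56.

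Relatives of the members in the AP-1, small MAF, EGR and NR4A families were measured for 9 of 14 genes. Fosl1, which encodes the AP-1 subunit FRA1, was higher in hair germ than in bulge by 3.47 log2 units (limma, adjusted p = 0.000641) and lower in dermal papilla than in hair germ by -4.53 (adjusted p = 2.24e-05). It was at 5.89, 5.12 and 5.78 in bulge, 7.97, 9.81 and 9.44 in hair germ and 5.16, 4.32 and 4.14 in dermal papilla, so every hair germ array was above every other array. Mafg, a small MAF partner, was higher in hair germ than in bulge by 1.08 and higher in dermal papilla than in bulge by 1.75 (limma, adjusted p = 0.000226). Jdp2, an AP-1 repressor, was higher in dermal papilla by 1.27 over bulge and 1.60 over hair germ, and Mafk was lower there by -0.85 and -0.94. Of the 9, 2 were called higher and 0 lower in hair germ against bulge, with a median of 0.58, where 12.2% and 7.56% of all genes were called.

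Other immediate early genes, 28 tested of 30, were called higher in hair germ than in bulge for 10 and lower for 2 of the 28 (limma), against 12.2% and 7.56% of all genes, with a median of 0.54 against 0.10 for all genes. Ptgs2, the inducible cyclooxygenase gene, was 2.64 higher (adjusted p = 8.01e-05), Plk2 2.64 and the EGF receptor inhibitor gene Errfi1 2.03, while the matrix protein gene Ccn2 differed by -2.19. Against hair germ, dermal papilla was higher for 4 and lower for 10 of the 28, against 15.5% and 23.8% of all genes. Ptgs2 (-5.05), the kinase gene Sgk1 (-3.50) and Klf6 (-2.80) were lower and the growth arrest gene Gadd45g (3.81) was higher. Against bulge, dermal papilla was higher for 7, led by Gadd45g (4.02), and lower for 11, among them Sgk1 (-3.80), Ccn2 (-3.43) and Ptgs2 (-2.41), where 16.1% of all genes were higher and 19% lower. Within dermal papilla 11 of 28 were at least 2-fold higher on day 69 than on day 43, where 5.82% of all genes were. The share of all genes also required the higher array to lie above its median, a rule not applied to the 28. Their median difference was 0.82 against 0.07 for all genes, with no test.

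Upstream regulators were measured for 12 of 20 genes. Between hair germ and bulge 0 of them were called (limma), against 19.8% of all genes, with a median of 0.13. Srf itself was at 8.82, 8.98 and 7.99 in bulge and 8.98, 9.44 and 9.61 in hair germ, and was lower in dermal papilla than in hair germ by -1.57 (limma, adjusted p = 0.00435). The ternary complex factor genes parted: Elk3 was higher in dermal papilla by 2.77 over hair germ and 2.48 over bulge, and Elk4 was lower by -1.21 and -0.99. Map3k1, a MAP kinase kinase kinase gene, was lower in dermal papilla by -1.83 and -2.13. Of 6 downstream genes tested of 14, Hbegf, an EGF receptor ligand gene, was 3.25 higher in hair germ than in bulge (limma, adjusted p = 3.52e-05). Vegfa was 1.91 and the ERK phosphatase gene Dusp6 1.86 higher. So 3 of 6 were higher and 0 lower, against 12.2% and 7.56% of all genes. Hbegf was at 7.06, 5.99 and 6.55 in bulge, 9.57, 9.50 and 10.26 in hair germ and 5.61, 5.34 and 6.07 in dermal papilla. Every hair germ array was above every other array for Hbegf, while Vegfa was highest in dermal papilla, 2.79 above bulge (limma, adjusted p = 2.19e-05). The EGR corepressor gene Nab1 was lower in dermal papilla than in hair germ by -0.99, and Nab2 was higher in dermal papilla than in bulge by 1.23.

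Stress gene lists were set beside these because several members respond to cell stress. Heat shock genes were called higher in hair germ than in bulge for 3 of 11, Hsph1 (1.02), Dnajb1 (0.98) and Hspa8 (0.85), and lower for 0 (limma). Their median was 0.44, and 12.2% of all genes were called higher and 7.56% lower. In dermal papilla 4 of 11 were lower than in hair germ, led by Dnajb1 (-2.98) and Hspb1 (-2.79), and 0 higher, against 23.8% and 15.5% of all genes. Integrated stress response genes, the network in which ATF4 induces ATF3, were higher in hair germ than in bulge for 4 of 10, Herpud1 (2.17), Sesn2 (1.33), Ddit4 (1.22) and Asns (1.17), and lower for 0, against 12.2% and 7.56% of all genes. Against hair germ, dermal papilla was lower for 3 and higher for 1 of the 10, close to the 23.8% and 15.5% of all genes, with Atf5 higher by 1.95 and Sesn2 and Ddit4 lower by -1.79 and -1.72. Ddit3, which encodes CHOP, was at 6.80, 7.33 and 7.06 in bulge, 6.52, 7.07 and 7.02 in hair germ and 6.97, 8.0 and 6.97 in dermal papilla. These ranges overlapped in all 3 populations.

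**Figure D4:**
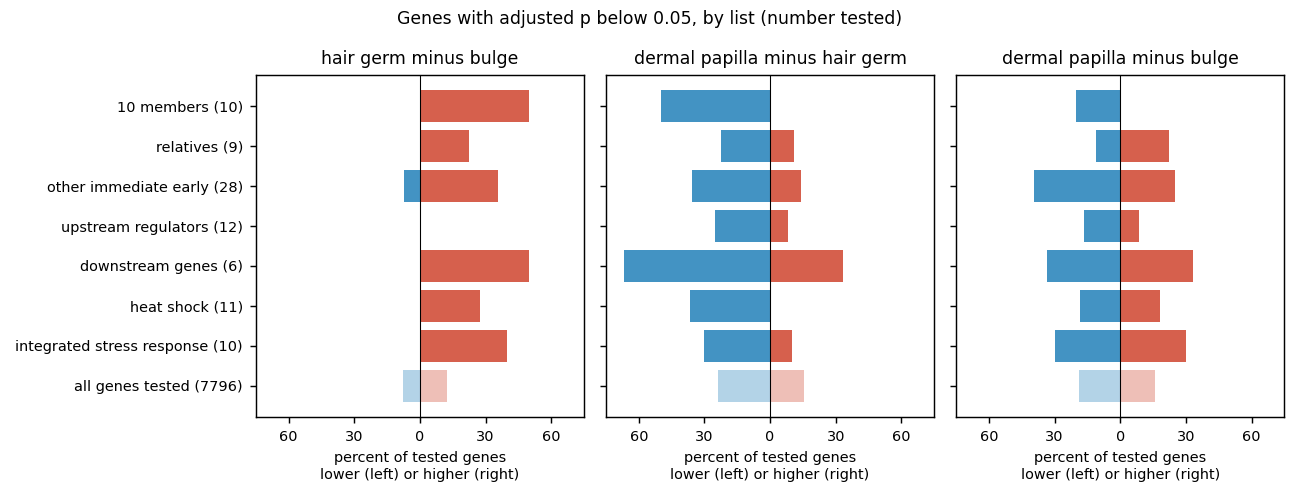
Percent of the tested genes of each list with an adjusted p below 0.05 in limma, lower to the left and higher to the right, for the 3 population comparisons, with all genes tested in pale colours. Numbers tested stand beside the list names; the shortest list holds 6 genes, so a single gene moves its bar widely.

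As a description, the genes whose profile over the 9 arrays was most like the mean of the 10 members were Prim2 (Pearson's r = 0.972), Art3 (0.963), Nfkbiz (0.956), Wee1 (0.947), Rad54l2 (0.944), Gm11517 (0.944), Tbc1d22a (0.943) and Peli1 (0.943). Arrays of 1 population share their cell type, so these values mostly follow the 3 populations. Nfkbiz, an inducible regulator of NF-kappa B target genes, was at 10.03, 9.18 and 10.15 in bulge, 11.88, 11.33 and 12.87 in hair germ and 8.38, 8.23 and 10.21 in dermal papilla. The mean of the centred members was 0.00, -0.79 and -0.02 in bulge, 0.47, 0.94 and 1.17 in hair germ and -0.96, -0.79 and -0.02 in dermal papilla. Both profiles were low on day 56 in bulge and highest on day 69 in dermal papilla and in hair germ.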

How the data were processed

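The 9 arrays were hybridised with biotin-labelled cRNA after 2 rounds of amplification, per the labels. The authors deposited MAS5 signals made with GCOS, per the submitters' processing notes, as intensity, linear and not logged. The versions and scaling target are not given in the sources used here. All 22690 probe sets had values on every array. Arrays give no counting depth, so their number limits the precision.

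From there values were taken to log2(signal + 16) without rescaling. A pseudocount of 16 understates the change of dim genes. Probe sets annotated to 1 gene (20380, with 691 for several genes, 1555 for none and 64 controls) were kept if above their array's median on at least 3 arrays, and the brightest per gene gave 7796 genes. All 10 members passed; Maff did so through 5 arrays. R 4.3.3 and limma 3.58.1 fitted population and day as additive terms on all 9 arrays (4 residual degrees of freedom; eBayes with trend), so the days are the replicates of a population. Two-sided p-values were adjusted over all genes by Benjamini-Hochberg and called below 0.05. The steps were tested on simulated data. Differences of at least 2-fold within a population, with the higher array above its median, were counted without a test. For the lists of related genes the rule on the median was not applied.

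Related genes were named by a rule: up to 4 per list and comparison with the largest differences among those called. Ddit3, outside it, was chosen after its values were seen. The members and lists were chosen with earlier results of these data known. Alternatives were pseudocounts 1 and 64, quantile and median scaling, other filters, no age term, no trend, another probe set, and leaving out arrays. Of the members only Jun and Egr2 have another probe set, so the rest kept theirs under that setting.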

Additional observations from a re-analysis of the deposited data

Results flagged for a closer look

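For 4 genes both later days lay below day 43 in bulge and above it in hair germ and dermal papilla (log2 differences, 1 array per value). The share of all genes with this pattern was not counted. Nr4a1 differed by -1.66 on day 56 and -0.38 on day 69 in bulge, by 0.75 and 0.88 in hair germ, and by 0.79 and 2.75 in dermal papilla. Atf3 differed by -0.88 and -0.35 in bulge, by 0.08 and 0.43 in hair germ, and by 1.29 and 2.75 in dermal papilla. Ier2 gave -0.90 and -0.15 in bulge, 1.09 and 1.10 in hair germ, and 0.59 and 1.04 in dermal papilla. Fosb gave -0.86 and -0.18 in bulge, 0.30 and 0.31 in hair germ, and 0.03 and 0.93 in dermal papilla. The differences between populations were not tested, since a single array per population and day leaves no spread for them, and each set shares its day 43 array.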

How the results depend on the processing

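Between hair germ and bulge 1541 of 7796 genes were called, and 543 without the 3 arrays whose GAPDH ratio was above 6. Leaving out 1 array gave 783 to 1609, below 1541 by over 1.5 times without the bulge array of day 43 (783), 56 (973) or 69 (863). The members called there were 5, and 3 under quantile normalization, 3 with median centring and 3 with no filter on dim probe sets. Leaving out 1 array gave 2 to 6 members. Between dermal papilla and hair germ 3062 genes were called, and 1783 without the arrays of high GAPDH ratio. Between dermal papilla and bulge 2 members were called. Without the arrays of high GAPDH ratio hair germ holds 1 array and day 43 is bulge alone. Few arrays then remain to estimate the spread, so counts of calls from that fit are uncertain. Under every setting with day as a term, 0 genes were called for day.

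Of 925 values of single members under an alternative, 833 kept their direction and side of the threshold, 27 lost and 13 gained a call, and 52 changed sign. Under quantile normalization the sign changed for Ier2 in hair germ minus bulge (-0.21), Fos in dermal papilla minus hair germ (0.10), and Fos (-0.035) and Egr1 (-0.091) for day 69 minus day 43. With median centring these were Ier2 in hair germ minus bulge (-0.18), and Fos (-0.093) and Egr1 (-0.11) for day 69. Without the arrays of high GAPDH ratio, where day 43 is bulge alone, Ier2 in dermal papilla minus hair germ was -0.26, and against bulge Fos was -0.0056 and Nr4a1 0.78. In the same fit day 69 gave -0.12 for Fosb, -0.0047 for Egr1, -0.21 for Nr4a1, -0.12 for Atf3 and -0.22 for Ier2, and day 56 gave -0.99 for Junb, -1.11 for Atf3 and -0.83 for Ier2. With 1 array left out, some ranges crossed 0 (log2 units). For day 56 minus day 43 they were Atf3 -0.57 to 0.75, Fosb -0.43 to 0.13, Ier2 -0.057 to 0.75, Jun -0.26 to 0.10, Junb -0.37 to 0.83 and Nr4a1 -0.67 to 0.73. For day 69 minus day 43 they were Egr1 -0.16 to 0.19, Egr2 -0.40 to 0.35 and Fos -0.24 to 0.24. For dermal papilla minus bulge they were Egr1 -0.035 to 0.28, Fos -0.028 to 0.38, Ier2 -0.22 to 0.65, Maff -1.10 to 0.25 and Nr4a1 -0.78 to 0.62. For dermal papilla minus hair germ they were Ier2 -0.19 to 0.43 and Junb -1.05 to 0.24. For hair germ minus bulge they were Ier2 -0.35 to 0.52 and Maff -0.11 to 1.36. Day is the label that pairs arrays across populations, and it stood in the fit as a block. Without the age term the members called were 5, 5 and 2, as with it. The median hair germ minus bulge difference of all genes was 0.105, and -0.046 after quantile normalization or -0.105 after median centring.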
